A study of Mus musculus with 16 samples.

Results

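The phosphofructokinase and Pfkfb enzyme families are described here in cortical bone of mice after hindlimb unloading (HLU). The members were 8 genes chosen by name: Pfkfb1, Pfkfb2, Pfkfb3 and Pfkfb4, the phosphofructokinase subunits Pfkl, Pfkm and Pfkp, and Tigar, a phosphatase that lowers the activator made by the Pfkfb enzymes. Of these 8, 4 were matched by symbol among 36829 features, namely Pfkfb2, Pfkfb3, Pfkl and Pfkp, each with 1 feature of its symbol. All 4 passed the filter on low values, a mean of at least 0.5 RPKM (reads per kilobase of gene, scaled to the reads of the library), which kept 16973 features. Symbols are not unique in the tables: 3887 features, 1108 of them kept, carry the symbol Rnf135, and they enter every count over all features. Pfkfb1, Pfkfb4, Pfkm and Tigar were not analysed here.

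Phosphofructokinase adds a phosphate to fructose 6-phosphate and commits sugar to glycolysis. Its strongest activator is fructose 2,6-bisphosphate, which the bifunctional Pfkfb enzymes both make and break down, each isoform with its own balance of kinase and phosphatase activity. Bone-forming cells are known for using much glucose and releasing lactate, so the supply of this activator bears on a main energy route of the tissue.

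The study compared weightbearing with unloaded bone by RNA sequencing of femoral cortical bone, with the bone ends removed and the marrow flushed. The mice were female, of strain C57Bl/6 and 11 weeks old. The 8 Control mice bore weight normally, and the 8 HLU mice had their hind limbs lifted off the floor by the tail for 7 days. Each mouse gave 1 library, libraries were sequenced 8 to a lane, and which libraries shared a lane is not given in the sources used here.

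The deposited values were RPKM, and whole reads were recovered from their steps for 99.976% of the features kept. The number of reads each library was divided by was 15814646 at the median of Control mice (7067512 to 19708590). At the median of HLU mice it was 16392467 (7838277 to 21363584). At these depths 3 reads on a gene of 1 kilobase amounted to 0.140 to 0.425 RPKM, below the level of every member in every mouse.

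The 4 enzymes stood at moderate to low levels, and Pfkfb3 was the most abundant of them in 16 of 16 mice. By mean RPKM over all mice Pfkfb3 ranked 3287 among the 16973 features, Pfkp 7880, Pfkfb2 9170 and Pfkl 10164. RPKM is a level per length, so the order of different genes depends on the length given to each. The length recovered from the values was 14512 bases for Pfkfb2, 9872 for Pfkfb3 and 11888 for Pfkp, against 7254, 7561 and 13401 exon bases in the GENCODE M21 annotation, which is not the authors' own. In the deposited values Pfkp lay above Pfkfb2 in 14 of 16 mice and above Pfkl in 14 of 16 mice. The order of Pfkfb2 and Pfkl did not exceed the spread between mice, since Pfkfb2 was the higher in 10 of 16 mice, 4 of them Control and 6 HLU. The Pfkp and Pfkfb2 levels also came close, with a median ratio of 1.32 over 16 mice and a lowest ratio of 0.853. This ratio is smaller than the difference between the 2 lengths of Pfkfb2, so the order of Pfkp and Pfkfb2 holds only for the lengths used in the files.

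**Figure D1:**
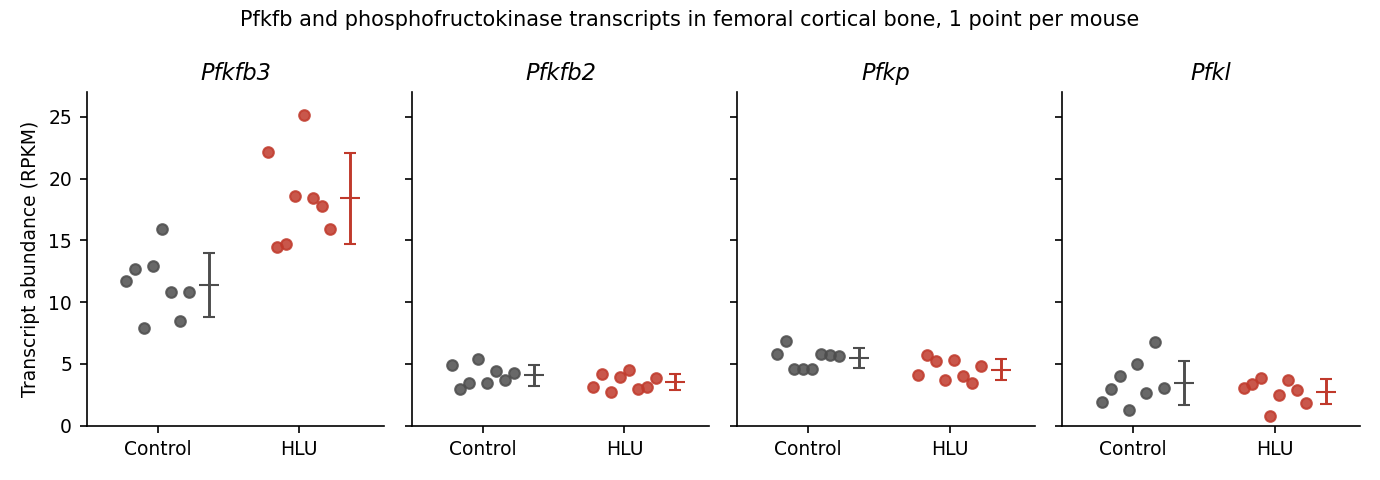
RPKM of each enzyme gene in 8 Control and 8 HLU mice, 1 point per mouse, with bars for the mean and SD of each group. The Pfkfb3 values of HLU mice run from 14.4 to 25.1 RPKM and those of Control mice from 7.89 to 15.9 RPKM, while the groups overlap more for Pfkfb2, Pfkp and Pfkl.

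Pfkfb3, the isoform with the highest kinase activity relative to its phosphatase activity, was the member that differed most between groups. In Control mice its transcript ran from 7.89 RPKM in Control 3 through a median of 11.3 to 15.9 RPKM in Control 5. In HLU mice it ran from 14.4 RPKM in HLU 2 through a median of 18.1 to 25.1 RPKM in HLU 5. All 8 HLU mice lay above the Control median and 5 above every Control mouse, while 7 of 8 Control mice lay below the lowest HLU mouse, so that the overlap came from Control 5 alone. Control mice averaged 11.4 ± 2.57 RPKM (SD, n = 8), and HLU mice 18.4 ± 3.69 RPKM (SD, n = 8). These values rested on 882 to 2911 reads per Control library and 1943 to 4260 per HLU library.

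On the log2(RPKM + 0.1) scale Pfkfb3 was 0.69 higher in HLU mice, a 1.62-fold difference with a 95% confidence interval from 1.30 to 2.02. The exact two-sided permutation p, over 12870 assignments of mice to groups, was 0.000622, where 0.000155 is the smallest p that such a test can give. By limma's unadjusted p (0.00027) the gene ranked 7 among all 16973 features, yet limma's p adjusted over all features was 0.649, above the threshold of 0.1. The difference was thus present in 8 of 8 HLU mice relative to the Control median but did not survive correction for the number of features tested.

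At an unadjusted limma p under 0.05 with at least a 1.2-fold change, Pfkfb3 was called higher, and no other member of the 4 was called in either direction. By the same rule limma called 188 of 16973 features higher (1.11%) and 808 lower (4.76%), together 996 (5.87%). Any fold counted, 1049 features had an unadjusted limma p under 0.05. At an adjusted limma p under 0.1 with the same fold, 0 members and 0 features were called (0%), and limma's voom on the recovered reads also called 0. With 4 genes analysed, no share of members was set against these percentages.

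The split between higher and lower calls depended on the scaling of the libraries. Of the 996 calls 18.9% were higher in HLU mice, against 48.4% (376 higher, 401 lower) after median-of-ratios rescaling and 57.0% (473 higher, 357 lower) after quantile normalization. The median log2 fold change of all features was -0.10 with the deposited values, -0.02 after median-of-ratios rescaling and 0.00 after quantile normalization. Relative to the median of all features with the deposited values, the log2 fold change was 0.80 for Pfkfb3, -0.08 for Pfkfb2, -0.18 for Pfkl and -0.16 for Pfkp. All 4 kept their sign under both rescalings. Single libraries also moved the counts: features called higher numbered 363 without HLU 2, 310 without HLU 3 and 117 without HLU 7. Features called lower numbered 1385 without HLU 2, 505 without Control 6, 512 without Control 7, 488 without HLU 1 and 471 without HLU 7. Without HLU 2, 1 feature passed the adjusted threshold.

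Pfkfb3 is a textbook target of the hypoxia-inducible factors, whose binding motif has the core ACGTG or GCGTG, and its promoter windows are printed because its transcript moved apart from those of the other members. Promoter windows of 250 bases before the annotated start were found for all 4 members in RefSeq, build GRCm38.p6, all on the minus strand. Pfkfb3 had 2 windows, at chr2:11553930-11554179 and chr2:11502091-11502340. Pfkfb2 had 3 windows, of which the first, at chr1:130715822-130716071, is shown, and Pfkp had 1, at chr13:6648772-6649021. Capitals mark ACGTG, the form searched first, or its other strand CACGT, and where both overlap, the palindrome CACGTG known as the E-box.
Pfkfb3 window 1: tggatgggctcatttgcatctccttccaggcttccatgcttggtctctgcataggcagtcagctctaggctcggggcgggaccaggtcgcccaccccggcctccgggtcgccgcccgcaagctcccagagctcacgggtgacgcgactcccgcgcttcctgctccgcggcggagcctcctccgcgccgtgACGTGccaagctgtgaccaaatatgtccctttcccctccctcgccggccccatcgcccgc
Pfkfb3 window 2: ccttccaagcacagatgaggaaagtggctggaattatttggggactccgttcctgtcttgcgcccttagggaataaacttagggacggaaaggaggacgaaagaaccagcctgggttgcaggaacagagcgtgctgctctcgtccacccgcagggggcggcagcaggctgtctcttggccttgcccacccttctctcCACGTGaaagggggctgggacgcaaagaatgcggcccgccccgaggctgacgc
Pfkfb2 window 1: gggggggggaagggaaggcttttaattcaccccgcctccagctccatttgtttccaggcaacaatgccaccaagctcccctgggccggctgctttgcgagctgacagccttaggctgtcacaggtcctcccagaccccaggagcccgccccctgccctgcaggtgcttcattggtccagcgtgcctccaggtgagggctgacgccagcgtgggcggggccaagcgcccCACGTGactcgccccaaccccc
Pfkp window 1: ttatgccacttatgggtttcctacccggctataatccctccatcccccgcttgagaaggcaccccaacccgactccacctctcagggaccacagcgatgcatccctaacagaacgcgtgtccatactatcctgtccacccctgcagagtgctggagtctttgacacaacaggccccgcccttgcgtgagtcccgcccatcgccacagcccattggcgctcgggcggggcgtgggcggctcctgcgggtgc
The first Pfkfb3 window held 1 ACGTG, beginning 60 bases before the start, and the second held an E-box beginning 53 bases before it. The first Pfkfb2 window held an E-box 22 bases before the start, the second held no ACGTG, and the third held 1, 172 bases before it. The Pfkp and Pfkl windows held no ACGTG. The form GCGTG, counted on either strand after seeing the data, occurred 3 times in the Pfkp window and 1 time in the Pfkl window. It occurred 2 times in the first Pfkfb2 window, 1 time in the second and not in the third, and 1 time in the second Pfkfb3 window and not in the first, so a core of either form was present in windows of all 4 members. Such letters are common: on either strand ACGTG was present in 5444 of 32851 windows of the same length (16.6%), the E-box in 1978 (6.02%) and a core of either form in 12679 (38.6%). A match describes these letters only, and no binding was measured.

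Pfkfb2, the isoform best known from heart, was by RPKM the scarcer of the Pfkfb genes analysed and did not differ between groups beyond the spread between mice. It ran from 2.94 RPKM in Control 2 through a median of 3.98 to 5.38 RPKM in Control 4, and from 2.73 RPKM in HLU 3 through a median of 3.49 to 4.47 RPKM in HLU 5. The groups overlapped over most of their range, with 6 of 8 HLU mice below the Control median and 1 below every Control mouse. Control mice averaged 4.06 ± 0.821 RPKM (SD, n = 8), and HLU mice 3.55 ± 0.640 RPKM (SD, n = 8). The log2 fold change was -0.18 (SE 0.14), with an exact permutation p of 0.192 and an adjusted limma p of 0.764. In the GENCODE M21 annotation 17.4% of the exon bases of Pfkfb2 are shared with Gm29427 on the same strand and 2.12% with Yod1 on the opposite strand. No source used here says that strand entered the counting, so reads in those bases cannot be assigned. No exon base of Pfkfb3 is shared with another gene there, although Gm10851 and Gm37975 lie within it.

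Pfkp, the platelet-type phosphofructokinase subunit, was by RPKM the more abundant of the 2 subunits analysed. Its transcript ran from 4.55 RPKM in Control 3 through a median of 5.68 to 6.87 RPKM in Control 2, and from 3.44 RPKM in HLU 7 through a median of 4.46 to 5.75 RPKM in HLU 2. HLU mice sat toward the low end, with 7 of 8 below the Control median and 4 below every Control mouse, although HLU 2, HLU 3, HLU 5 and HLU 8 lay among the Control values. Control mice averaged 5.44 ± 0.812 RPKM (SD, n = 8), and HLU mice 4.53 ± 0.840 RPKM (SD, n = 8). The log2 fold change was -0.27 (SE 0.13). The exact permutation p was 0.0443, whereas limma's unadjusted p was 0.0539 and its adjusted p 0.744, so the gene was not called. It was called lower with voom on the recovered reads, at a log2 fold change of -0.27. It was also called without Control 3 (-0.30), Control 4 (-0.30), Control 5 (-0.30), HLU 2 (-0.32), HLU 3 (-0.30) or HLU 5 (-0.30). With erythroid and neutrophil scores limma's unadjusted p was the lowest of all settings, but the log2 fold change (-0.24) fell short of the fold threshold. Of its exon bases 5.58% are shared with Pitrm1 on the opposite strand, a gene listed at 22.6 to 50.1 RPKM.

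Pfkl, the liver-type subunit, varied more between mice than any other member analysed and did not differ between groups beyond that variation. It ran from 1.26 RPKM in Control 4 through a median of 3.04 to 6.73 RPKM in Control 7, and from 0.815 RPKM in HLU 4 through a median of 2.97 to 3.84 RPKM in HLU 3. The medians were nearly equal and the groups overlapped almost fully, with Control 7 standing high and HLU 4 standing low. Over 16 mice the highest value was 8.26 times the lowest, against 3.18 times for Pfkfb3, 1.99 for Pfkp and 1.97 for Pfkfb2. The coefficient of variation was 50.7% in Control and 37.2% in HLU mice, from libraries with 65 to 512 reads on the gene. The log2 fold change was -0.28 (SE 0.33), with an exact permutation p of 0.447 and an adjusted limma p of 0.830. Its sign changed when scores of erythroid and neutrophil markers were added to the fit, to 0.37.

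With Pfkfb3 called higher and Pfkfb2 not called, Pfkfb3 took a larger share of the Pfkfb transcripts analysed in HLU mice. The share of Pfkfb3 in the summed RPKM of Pfkfb2 and Pfkfb3 ran from 69.4% in Control 7 through a median of 70.8% to 82.2% in Control 5. In HLU mice it ran from 77.4% in HLU 2 through a median of 84.6% to 87.5% in HLU 1. Control 5 and Control 2 stood above the other 6 Control mice, which lay below every HLU mouse, and only HLU 2 and HLU 8 fell below Control 5. The ratio of the same genes carries the test of this difference. The sum of both genes averaged 15.5 ± 2.74 RPKM (SD, n = 8) in the Control group and 21.9 ± 3.92 RPKM (SD, n = 8) in the HLU group.

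The makeup of the phosphofructokinase subunits overlapped between groups over nearly its whole range, and it was not tested. The share of Pfkp in the summed RPKM of Pfkl and Pfkp ran from 45.9% in Control 7 through a median of 66.7% to 78.4% in Control 4. In HLU mice it ran from 51.7% in HLU 6 through a median of 60.4% to 81.9% in HLU 4. The low share of Control 7 went with the highest Pfkl of all mice, and the high shares of Control 4 and HLU 4 with the lowest Pfkl of their groups. Their summed level averaged 8.90 ± 1.89 RPKM (SD, n = 8) in the Control group and 7.28 ± 1.51 RPKM (SD, n = 8) in the HLU group. The size of all these shares depends on the lengths given to the genes, and they concern only the genes analysed, since Pfkm and the other Pfkfb genes do not enter the sums.

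**Figure D2:**
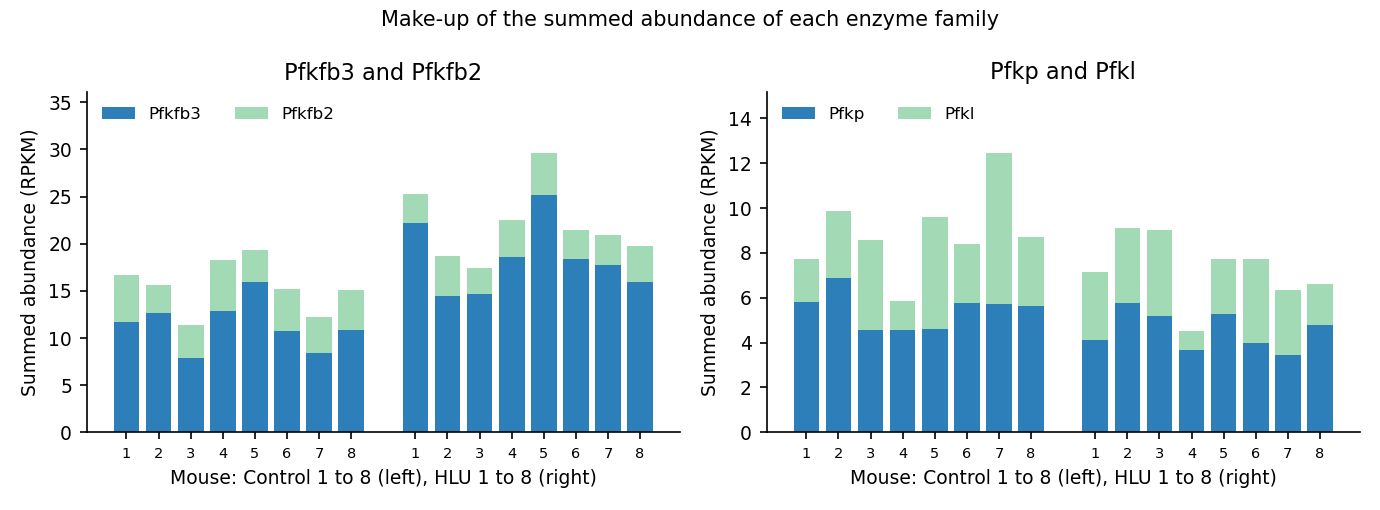
Summed RPKM of Pfkfb3 and Pfkfb2, and of Pfkp and Pfkl, 1 stacked bar per mouse. Control mice are on the left and HLU mice on the right of each panel. The share of Pfkfb3 in its bar has a median of 70.8% in Control and 84.6% in HLU mice, while the Pfkp share spreads widely in both groups.

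A ratio of Pfkfb3 to another member within a library depends on the number of reads that library was divided by only through the 0.1 added to each RPKM, and it shows whether the genes changed unequally. Of 7 ratios planned, 3 could be computed. The ratio to Pfkfb2 ran from 2.24 in Control 7 through a median of 2.39 to 4.53 in Control 5, and from 3.36 in HLU 2 through a median of 5.38 to 6.84 in HLU 1. Of the HLU mice 6 exceeded every Control mouse, and the high Control values came from Control 5 and Control 2. The difference was 0.88 on the log2 scale (1.84-fold), with an exact permutation p of 0.00171.

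Against Pfkp, the ratio ran from 1.47 in Control 7 through a median of 1.88 to 3.41 in Control 5, and from 2.48 in HLU 2 through a median of 4.60 to 5.28 in HLU 1. Here 5 of 8 HLU mice exceeded every Control mouse, and HLU 2, HLU 3 and HLU 8 fell below Control 5. The difference was 0.96 on the log2 scale (1.94-fold), with an exact permutation p of 0.00124. The group means of both ratios, to Pfkfb2 and to Pfkp, thus differed at an exact permutation p under 0.05, while single mice of the groups overlapped.

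The difference in log2 ratio of Pfkfb3 to Pfkl was as large but less even. This ratio ran from 1.25 in Control 7 through a median of 3.71 to 9.55 in Control 4, and from 3.76 in HLU 3 through a median of 6.52 to 20.4 in HLU 4. The extremes again belonged to the mice at the ends of the Pfkl range, and 2 HLU mice exceeded every Control mouse. The difference was 0.98 (1.97-fold), with an exact permutation p of 0.0347. The exact p rose past 0.05 without Control 3 (0.0681), Control 5 (0.0555), Control 7 (0.0716), Control 8 (0.0511), HLU 1 (0.0502), HLU 4 (0.0727), HLU 5 (0.0633) or HLU 8 (0.0572). In each of the 3 ratios all 8 HLU mice lay above the Control median.

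**Figure D3:**
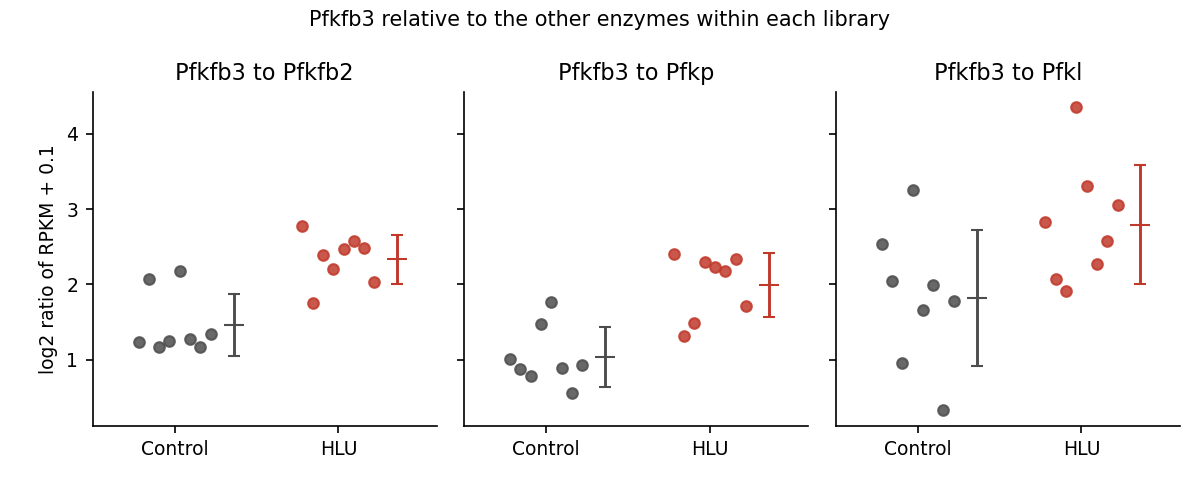
Log2 ratio of Pfkfb3 to Pfkfb2, Pfkp and Pfkl within each library, from RPKM + 0.1, 1 point per mouse, with bars for the mean and SD of 8 Control and 8 HLU mice. The group means differ by 0.88, 0.96 and 0.98, and the ratio to Pfkl spreads most within each group.

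Within groups, Pfkfb3 showed no clear relation to the other members. Log2 values were centred on their group means over 16 mice, and 3 relations were computed of 7 planned. With Pfkfb2, Pearson's r was 0.15 (permutation p = 0.586, adjusted 0.606) and Spearman's rho 0.14 (permutation p = 0.630, adjusted 0.746). With Pfkp, r was -0.14 (permutation p = 0.606, adjusted 0.606) and rho -0.09 (permutation p = 0.746, adjusted 0.746). With Pfkl, r was -0.26 (permutation p = 0.350, adjusted 0.606) and rho -0.29 (permutation p = 0.292, adjusted 0.746). Without Control 5 and Control 3, the mice farthest from the median of the centred Pfkfb3 values, r was 0.22 with Pfkfb2, -0.20 with Pfkp and -0.43 with Pfkl. Without Control 3 and HLU 5, the mice farthest by Pfkfb3 level, it was -0.16, -0.57 and -0.24 in the same order. With single mice left out, r ran from -0.01 (without HLU 5) to 0.30 (without Control 5) for Pfkfb2, from -0.32 to -0.01 for Pfkp and from -0.46 to -0.12 for Pfkl. Without the libraries of the smallest divisors, Control 2 and HLU 5, it was -0.44 for Pfkp. The size of each r, and for Pfkfb2 its sign, thus depended on which mice were included.

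Set among 15756 features of unique symbol, these relations were ordinary. A higher r with Pfkfb3 was found for 25.0% of the features than for Pfkfb2, for 61.0% than for Pfkp and for 77.8% than for Pfkl. The features most like Pfkfb3 across the 16 centred values were Morc4 (r = 0.79), Atp8b1 (0.77), Olfm1 (0.76), Emcn (0.76) and 4833422C13Rik (0.75), with rho between 0.72 and 0.87. Emcn encodes endomucin, a surface protein of vessel endothelium. None of these 5 was called between groups with the deposited values and all mice, with log2 fold changes of 0.19, -0.15, -0.20, 0.07 and -0.12 in that order. Atp8b1 and Olfm1 were called lower with erythroid and neutrophil scores (-0.46 and -0.29) and with the endothelial score (-0.36 and -0.30). Over all 16973 features the first setting called 1522 higher and 2109 lower, and the second 84 and 418. As the highest of so many values, the r of these features carry no test.

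**Figure D4:**
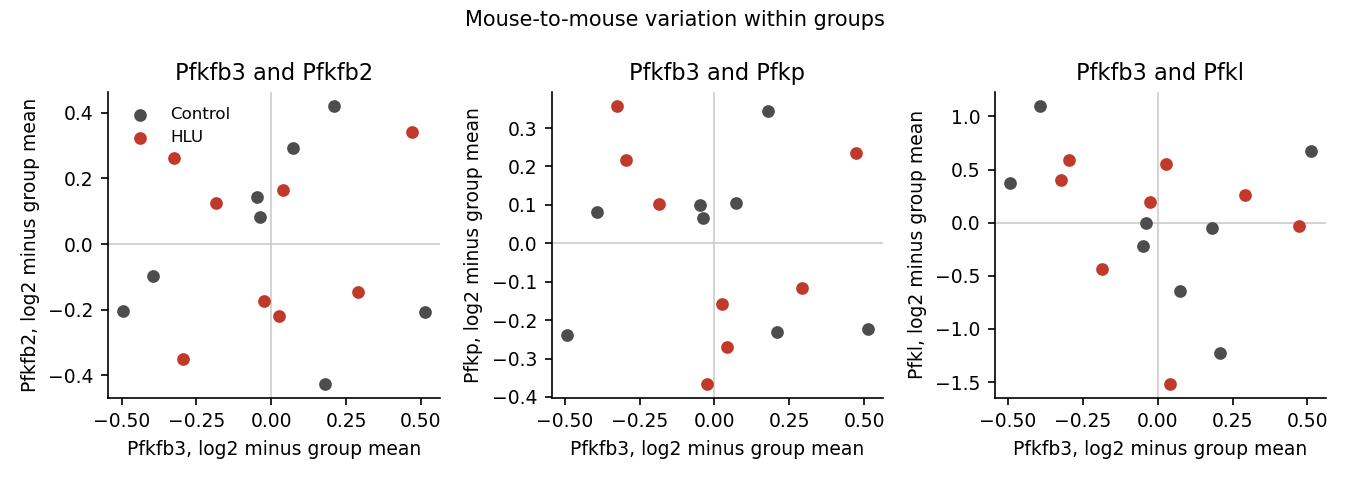
Log2(RPKM + 0.1) of Pfkfb3 against that of Pfkfb2, Pfkl and Pfkp, each centred on its group mean, 1 point per mouse for 8 Control and 8 HLU mice. No panel shows a clear trend, with r of 0.15, -0.26 and -0.14 over 16 mice.

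Other genes of sugar metabolism gave the setting of the enzymes. Of 19 glycolysis genes listed, 7 were matched and 5 passed the filter, and none was called higher or lower, with a median log2 fold change of -0.26 beside -0.10 over all features. Hk1, a hexokinase that traps glucose in the cell, averaged 13.9 RPKM in Control and 10.8 RPKM in HLU mice (log2 fold change -0.44, SE 0.26). Pklr, a pyruvate kinase typical of liver and red cells, averaged 10.4 and 7.78 RPKM (-0.51, SE 0.28). Eno1, an enolase, averaged 5.84 and 4.46 RPKM (-0.26, SE 0.36). Both Hk1 and Pklr were called lower without HLU 2 (-0.55 and -0.62) and without HLU 3 (-0.58 and -0.67). With scores of erythroid and neutrophil markers as covariates the log2 fold change was -0.06 for Hk1 and -0.17 for Pklr, and Eno1 was called higher (0.53). That setting called 1522 of 16973 features higher and 2109 lower. Hk1 and Pklr were highest in Control 7, the mouse with the highest Pfkl.

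Of 5 carriers of glucose and lactate listed, 4 were matched and passed the filter, and 1 was called lower. That was Slc16a1, a lactate and pyruvate carrier, which ran from 43.3 through a median of 52.6 to 70.3 RPKM in Control mice and from 22.2 through a median of 42.6 to 65.9 RPKM in HLU mice. The groups overlapped broadly, with 7 of 8 HLU mice below the Control median and 4 below every Control mouse. The log2 fold change was -0.46 (SE 0.19), with an exact permutation p of 0.0361 and an adjusted limma p of 0.744. The call was lost without Control 4 (log2 fold change -0.43), Control 6 (-0.41), Control 7 (-0.42), HLU 1 (-0.35) or HLU 7 (-0.39). It was also lost with erythroid and neutrophil (-0.34), endothelial (-0.32) or osteocyte (-0.40) marker scores as covariates. Slc2a3, a glucose carrier, averaged 16.3 and 13.3 RPKM (-0.33) and was called lower without HLU 2 (-0.43) or HLU 3 (-0.40). Slc16a3, a lactate exporter, averaged 3.77 and 3.52 RPKM, lower in HLU mice, while its log2 fold change, a mean over log2 values, was slightly above 0 (0.06, SE 0.35). With erythroid and neutrophil scores it was called higher (0.66) and passed limma's adjusted threshold as well, as 1541 features did with those scores.

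Of 7 gluconeogenesis genes, 5 were matched and 4 passed the filter, and 1 was called higher. That was Fbp1, the phosphatase that reverses the phosphofructokinase step. It ran from 0.227 through a median of 0.503 to 0.774 RPKM in Control mice and from 0.367 through a median of 0.956 to 1.61 RPKM in HLU mice. The gene was scarce, with 4 to 38 reads per Control library and 14 to 66 per HLU library, yet 6 of 8 HLU mice exceeded every Control mouse, and HLU 7 was the lowest of its group. Its log2 fold change was 0.89 (SE 0.30), which understates the change of so low a gene, with an exact permutation p of 0.00964 and an adjusted limma p of 0.744. The call held with each mouse left out in turn, and the log2 fold change ran from 0.42 with a pseudocount of 1 to 1.12 with erythroid and neutrophil scores. Adjusted limma p ran from 0.0663, with those scores, to 0.990 over 28 alternatives. The lowest was below the threshold of 0.1, as for 1541 features with those scores. The call could not be made with a minimum mean of 2 RPKM, which removed the gene. The more abundant genes of the list were Pck2 (13.9 and 9.87 RPKM in Control and HLU mice), G6pc3 (4.22 and 3.79) and Pck1 (1.10 and 1.19), none of them called.

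In the remaining pathway lists no gene was called with the deposited values and all mice, though some were under other settings, named here after their values were seen. All 8 genes of the pentose phosphate pathway, which branches off ahead of phosphofructokinase, passed the filter, with a median log2 fold change of -0.22. The most abundant were G6pdx (51.4 and 48.0 RPKM in Control and HLU mice), Taldo1 (43.4 and 32.8) and Tkt (29.2 and 26.4). Without HLU 2, Rpia was called lower (-0.33), and with erythroid and neutrophil scores Taldo1 (0.48) and H6pd (0.33) were called higher and Rpe (-0.41) lower. Over all 16973 features the calls numbered 363 higher and 1385 lower without HLU 2, and 1522 and 2109 with those scores. Of 6 genes controlling pyruvate dehydrogenase, 3 were analysed (median -0.11), namely Pdk3 (12.9 and 10.7 RPKM), Pdk1 (5.55 and 5.78) and Pdp2 (1.43 and 1.34). Pdk3 was called lower with erythroid and neutrophil scores (-0.42). Of 7 subunit genes of AMPK, a kinase known to phosphorylate some Pfkfb isoforms, 4 were analysed (median -0.12), led by Prkag1 (63.0 and 56.9 RPKM), Prkaa1 (16.8 and 15.9) and Prkab1 (12.9 and 11.4).

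Of 15 hypoxia genes, 12 were analysed, with a median log2 fold change of 0.03. The most abundant were Epas1 (23.0 and 25.6 RPKM in Control and HLU mice), Ndrg1 (19.1 and 21.4) and Ddit4 (17.4 and 15.4). None was called with the deposited values, while Adm was called higher with erythroid and neutrophil scores (0.90) and P4ha1 lower with the osteocyte score (-0.34). Of 8 genes of the p53 response, to which Tigar belongs, 7 were analysed, with a median of -0.06. They were led by Sesn1 (28.6 and 27.5 RPKM), Cdkn1a (18.4 and 19.6) and Bax (11.9 and 9.02). Bax was called higher with erythroid and neutrophil scores (1.02). Those scores gave 1522 higher and 2109 lower calls over all 16973 features, and the osteocyte score 92 and 537.

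**Figure D5:**
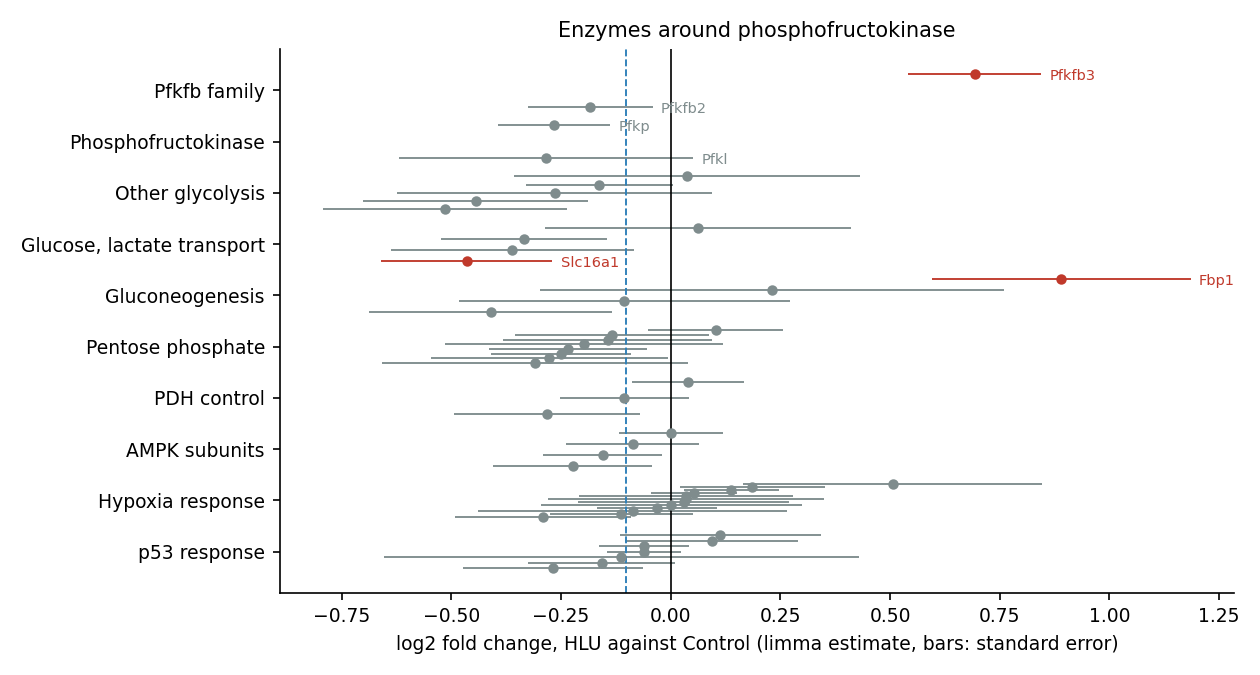
Log2 fold change of HLU over Control mice, with SE bars, for the 4 enzyme genes and the listed genes of related pathways that passed the filter, with called genes in red. The black line marks 0 and the dashed blue line the median of all features, -0.10; Pfkfb3 (0.69) and Fbp1 (0.89) lie farthest to the right and Slc16a1 (-0.46) is called lower.

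Markers of the cells that cortical bone holds were read in the same libraries, because in bulk tissue fewer cells of a type and less RNA per cell cannot be told apart. All 5 osteocyte and all 8 osteoblast markers were present in every mouse of this tissue, and no other marker that was matched was at 0 in any mouse. Neutrophil transcripts were also plentiful. The 6 neutrophil markers matched, of 8 listed, were led by S100a8. They summed to 17720 to 38030 RPKM in Control mice (median 30439) and 12607 to 44809 RPKM in HLU mice (median 25347). The 11 skeletal muscle markers listed were not analysed here.

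Markers of osteocytes, adipocytes and endothelium all had log2 fold changes above 0. Of 5 osteocyte markers (median 0.39) 1 was called higher, Mepe, which averaged 140 ± 75.1 RPKM (SD, n = 8) in Control and 226 ± 78.5 RPKM (SD, n = 8) in HLU mice. Their summed level ran from 178 in Control 2 through a median of 315 to 588 RPKM in Control 3, and from 262 in HLU 2 through a median of 509 to 597 RPKM in HLU 1. HLU 2 was thus lowest of its group for Pfkfb3 and for these markers, but Control 3, lowest for Pfkfb3, was highest for them. Of 8 adipocyte markers 6 passed the filter (median 0.46) and 1 was called higher, the most abundant, Fabp4. The 8 summed to 409 to 789 RPKM in Control mice (median 574) and 488 to 840 RPKM in HLU mice (median 732). None of 5 endothelial markers was called (median 0.11), and their sum ran from 54.5 in Control 1 through a median of 61.1 to 67.5 RPKM in Control 5, and from 56.1 in HLU 8 through a median of 67.5 to 82.2 RPKM in HLU 5. Pecam1 was the most abundant of them. Cdh5 was called higher after median-of-ratios rescaling (0.29), after quantile normalization (0.33) and with erythroid and neutrophil scores (0.29). Control 5 and HLU 5, each highest of its group for endothelial markers, were also highest of their groups for Pfkfb3. Other mice went the other way. Control 3, lowest for Pfkfb3, had an endothelial sum of 64.6 RPKM, above the Control median. HLU 7 had a sum of 74.8 RPKM, above the HLU median, but a Pfkfb3 level of 17.8 RPKM, below the HLU median of 18.1 RPKM.

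Scores of these markers were added to the fit after seeing the data. The log2 fold change of Pfkfb3 was 0.67 with the osteocyte score and 0.54 with the endothelial score as a covariate, and it stayed called at the unadjusted threshold in both. Endothelial cells are known to use Pfkfb3 in vessel sprouting, and with that score the limma p was 0.000908, and 0.990 when adjusted, within a range of 0.0769 to 0.990 over 29 alternatives. The part of adipocytes in the result was not tested. Calls of single markers changed with single mice and settings. Mepe was not called without Control 1 (log2 fold change 0.66), Control 6 (0.64) or the 2 smallest libraries (0.68), nor with the endothelial score (0.57). The osteocyte score is built from Mepe and the other osteocyte markers, so it cannot test them. With it Mepe was not called (0.34) and Dmp1 was called lower (-0.29). Sost was called higher as well without Control 3, Control 8 or HLU 2 and after both rescalings (0.68 and 0.72). The call of Fabp4 was lost in 13 of 29 alternatives: without a filter (0.34), with the replicate block (0.34), without the 2 smallest libraries (0.33), with the endothelial (0.20) or osteocyte (0.22) score, and with 8 single mice left out. Of the adipocyte markers 0 were thus called without Control 1, Control 4, Control 6, HLU 1, HLU 4, HLU 5, HLU 6 or HLU 7, 2 without Control 5 or HLU 3, and 3 with erythroid and neutrophil scores.

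Markers of erythroid cells and megakaryocytes all had log2 fold changes below 0, as had 11523 of the 16973 features. Of 10 erythroid markers 9 were matched, with a median of -0.60, and 3 were called lower. They summed to 3059 RPKM in Control 1 through a median of 3877 to 8692 RPKM in Control 7, and to 1670 RPKM in HLU 1 through a median of 2633 to 4488 RPKM in HLU 2. Hbb-b2 was the most abundant, averaging 1388 ± 658 RPKM (SD, n = 8) in Control and 856 ± 376 RPKM (SD, n = 8) in HLU mice. Control 7, highest for these markers, was also highest for Pfkl, Hk1, Pklr and Eno1. Without Control 6, Control 7, Control 8, HLU 1, HLU 4, HLU 5 or HLU 7, 1 erythroid marker was called lower, and without HLU 2 or HLU 3, 5 were. The count was 1 without the 2 smallest libraries or with the osteocyte score, and 0 with the endothelial score. With erythroid and neutrophil scores, the first built from these same genes, Hba-a1 (0.98) and Hba-a2 (0.77) were called higher and Ermap (-0.37) and Rhag (-0.45) lower. Of 5 megakaryocyte markers 4 were matched (median -0.62) and 2 were called lower, led by Ppbp, and they summed to 939 to 1580 RPKM in Control mice (median 1354) and 406 to 1353 RPKM in HLU mice (median 773). With the osteocyte score, or with erythroid and neutrophil scores, 1 of them was called lower, and without HLU 2 or HLU 3, 3 were. Platelets, which give Pfkp its name, come from these cells, and their part in the Pfkp result was not tested. With erythroid and neutrophil scores as covariates the log2 fold change was 0.52 for Pfkfb3, whose adjusted limma p of 0.0769 then passed the threshold of 0.1, as 1541 features did.

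In the other marker lists no gene was called with the deposited values and all mice. The median log2 fold change was -0.08 over 8 osteoblast markers, led by Ibsp (523 and 588 RPKM in Control and HLU mice), and -0.01 over the 7 osteoclast markers that passed the filter, led by Ctsk (676 and 815). It was -0.11 over 6 neutrophil markers and -0.31 over 6 B lymphocyte markers, led by Cd79b (26.9 and 21.4 RPKM). Over 6 macrophage markers, led by C1qb (68.8 and 63.4), it was -0.18. All 6 B lymphocyte and all 6 macrophage markers had log2 fold changes below 0, as had 5 of the 6 neutrophil markers. Without Control 5, Cd79b (-0.51) was called lower. With the osteocyte score Bglap (-0.88), Col1a2 (-0.52) and Sp7 (-0.40) were called lower, and with the endothelial score Oscar (-0.56).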

How the data were processed

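RNA sequencing values of femoral cortical bone from 16 mice, 8 Control and 8 HLU, were used as RPKM, deposited by the authors in 1 table per mouse. The submitters' processing notes name TopHat2, DESeq2 and build mm9. The members and all gene lists were chosen with earlier results of these data known.

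RPKM values were tested as log2(RPKM + 0.1) with limma 3.58.1 (R 4.3.3, variance trend, Benjamini-Hochberg adjustment) over the 16973 features whose mean reached 0.5 RPKM. A fold change is on that scale. Calls needed at least a 1.2-fold change together with limma's p under 0.05 before adjustment, or under 0.1 after it, the study's fold and adjusted thresholds. Single genes and ratios were tested by exact two-sided permutation over all 12870 assignments, and correlations with 100000 permutations within groups (numpy 2.4.6, scipy 1.17.1, pandas 2.3.3, Python 3.11.15, matplotlib 3.10.9). P-values of group differences set the difference between group means against the spread between mice. Methods were tested on simulated data first.

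Depth came from the steps of the RPKM values: the divisor of each library and the gene lengths that gave whole reads, 7067512 to 21363584 reads per library, where a value counted as whole within 0.02 reads plus the rounding of the deposited values, at most 0.25 reads. These recovered reads entered limma's voom as an alternative.

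Named genes were the members; of the pathway lists (glycolysis, glucose and lactate transport, gluconeogenesis, pentose phosphate pathway, pyruvate dehydrogenase control, AMPK, hypoxia, p53) each called gene and the 3 most abundant; of each marker list the most abundant gene; and the 5 features of unique symbol with the highest r with Pfkfb3. Marker lists covered osteocytes, osteoblasts, osteoclasts, muscle, adipocytes, neutrophils, erythroid cells, B lymphocytes, megakaryocytes, macrophages and endothelium. Promoter windows came from RefSeq, build GRCm38.p6, and gene overlaps from GENCODE M21; since the files name mm9, no coordinates beyond those windows are given.

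Alternatives changed the pseudocount, the filter, the scaling, the variance trend, the block, the covariates or the mice included.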

Additional observations from a re-analysis of the deposited data

Results flagged for a closer look

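Within each group of 8 mice, the gap between the highest or lowest value and its nearest neighbour was divided by the range of the group and compared with Dixon's 95% critical value for 8 values. Chance passes that value in about 1 in 20 groups, and 2 of 34 groups tested passed it.

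The summed erythroid markers of Control 7, at 8692 RPKM, stood apart from the other Control mice, with a gap of 0.631 of the range. Control 7 also had the highest Pfkl of all mice, at 6.73 RPKM.

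The ratio of Pfkfb3 to Pfkl in HLU 4, at 20.4, stood apart from the other HLU mice, with a gap of 0.635 of the range. HLU 4 had the lowest Pfkl of all mice, at 0.815 RPKM from 65 reads, and a Pfkfb3 level of 18.6 RPKM close to the median of its group.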

How the results depend on the processing

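Pfkfb3 was called higher at the unadjusted threshold under all 29 alternatives, with a log2 fold change of 0.52 to 0.83, and of 0.62 (without Control 3) to 0.77 (without Control 5) with single mice left out. Its adjusted limma p ran from 0.0769 to 0.990. Pfkfb2 was never called. The differences in the ratios to Pfkfb2 (0.80 to 0.98) and Pfkp (0.87 to 1.06) kept their side of the threshold in 21 alternatives each. That in the ratio to Pfkl ran from 0.75 to 1.18 with single mice left out, and was 0.94 (exact permutation p = 0.0740) without the 2 libraries of the smallest divisors, Control 2 and HLU 5. This last alternative and the osteocyte and endothelial covariates were chosen after seeing the data. A muscle covariate was not run, as the 11 muscle markers were not analysed here. For each change below, the cause was not tested, apart from fewer features or fewer mice where the alternative itself removes them.

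Features called higher, 188, numbered 391 without a filter, 106 with a minimum mean of 2 RPKM, 376 after median-of-ratios rescaling, 473 after quantile normalization, 1522 with erythroid and neutrophil covariates, 108 without the 2 libraries, 84 with the endothelial and 92 with the osteocyte covariate, and 117 to 363 with single mice left out. Features called lower, 808, numbered 401, 357, 2109, 418 and 537 with median-of-ratios, quantile, erythroid and neutrophil, endothelial and osteocyte settings, and 471 to 1385 with single mice left out. Features called at limma's adjusted threshold, 0, numbered 1 without a filter, 1 without the variance trend, 1541 (469 higher, 1072 lower) with erythroid and neutrophil covariates, and 0 to 1 with single mice left out.

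Replicate numbers did not pair the mice in general: deviations of mice with the same number correlated at -0.17 to 0.51, above 0.1 in 3 of 8 pairs. Of 16 mice 3 were closest to their own number. The highest correlation, 0.51, was that of Control 4 and HLU 4, both closest to their own number. With the replicate block 199 features were called higher, 840 lower and 0 at the adjusted threshold, and Pfkfb3 kept a log2 fold change of 0.69. Of the named genes Fabp4 (0.34) passed limma's unadjusted threshold without the block and not with it. The erythroid marker Rhag (-0.60) was likewise called lower without the block and not with it.

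Log2 fold changes took the opposite sign as follows. With erythroid and neutrophil covariates they were 0.37 for Pfkl, 0.53 for Eno1, 0.22 for Pck2, 0.58 for G6pc3, 0.48 for Taldo1, 0.41 for Tkt, -0.0036 for Pdk1, 0.0051 for Pdp2, 0.064 for Prkag1, 0.048 for Ddit4, 1.02 for Bax, -0.057 for Ibsp, 0.16 for C1qb, -0.064 for Morc4 and -0.12 for Emcn. With the endothelial covariate they were -0.079 for Slc16a3, -0.14 for Pck1, 0.012 for G6pdx, 0.010 for Prkaa1, -0.12 for Cdkn1a and -0.039 for Emcn, which is itself in that score. With the osteocyte covariate they were -0.094 for Slc16a3, 0.11 for G6pdx, -0.0055 for Pdk1, -0.066 for Ndrg1 and -0.19 for Cdkn1a. Without the 2 libraries Slc16a3 was -0.0088. Median-of-ratios rescaling gave 0.00028 for Prkaa1 and 0.026 for Sesn1, and quantile normalization 0.048 for Prkaa1, 0.027 for Ddit4 and 0.078 for Sesn1. With single mice left out the values ran from -0.12 to 0.23 for Slc16a3, -0.28 to 0.16 for G6pc3, -0.35 to 0.020 for Tkt, -0.011 to 0.093 for Pdk1, -0.25 to 0.13 for Ddit4, -0.014 to 0.23 for Cdkn1a and -0.42 to 0.19 for Bax.

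Depth limited Fbp1, with as few as 4 reads in a library. For Pfkl, counting error was 12.4% at its lowest read count, 65, against a coefficient of variation of 37.2% in HLU mice.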
